A study of Mus musculus with 18 samples.

Results

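Matrix metalloproteinases (MMPs) and the tissue inhibitors of metalloproteinases (TIMPs) were followed by RNA sequencing in cultured mouse embryonic fibroblasts (MEF), connective tissue cells that lay down collagen and other matrix. The members were chosen by gene name, with earlier results of these data known. They were 7 MMP genes (Mmp2, Mmp3, Mmp9, Mmp10, Mmp13, Mmp14 and Mmp19) and 3 TIMP genes (Timp1, Timp2 and Timp3), which make 10 of the 55450 genes in the table. The study asked how vectors that express miR-29b, a microRNA known for matching collagen transcripts, change gene expression in cells stimulated with TGF-β, a cytokine that drives fibrosis. All cells came from 1 commercial source of MEF and all were transfected with a plasmid. The empty vector was pcDNA3. In the Col1a1-miR-29b vector, the promoter of Col1a1, a collagen gene, drove EGFP and human miR-29b-1, and an SV40 promoter drove mRFP1 as a mark of transfection. The CMV-miR-29b vector had the CMV promoter in place of the Col1a1 promoter. The empty vector is not described as holding EGFP or mRFP1. Both miR-29b vectors were given in equal molar amounts, and the study's methods list a larger DNA mass for Col1a1-miR-29b than for CMV-miR-29b. The mass of the empty vector is not stated. In a comparison with the empty vector, the parts of EGFP, mRFP1, DNA mass and miR-29b cannot be told apart. At 6 h after transfection TGF-β was added at 20 ng/ml or left out, and RNA was taken 24 h later. Each of the 6 groups held 3 libraries, 18 in all. The study's results section speaks of repeated experiments, but the labels do not name the cultures. The p-values therefore measure the spread between these libraries, which may be technical. No sort for transfected cells is described.

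MMPs are zinc-dependent endopeptidases that cut collagens and other matrix proteins. Most are secreted as inactive proenzymes, and some, such as the product of Mmp14, sit in the cell membrane. TIMPs bind to active MMPs and block them, and the product of Timp2 also takes part in the activation of pro-MMP2 at the cell surface by the Mmp14 product. In fibroblasts these genes are known for setting how fast new matrix is broken down.

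Total counts per library ranged from 65898017 to 80332633. In the counts as deposited, the precursor gene Mir29b-1 had 0 counts in all 6 empty vector libraries. It had 0 to 1 in Col1a1-miR-29b libraries without TGF-β and 2 to 6 with it, and 110 to 309 in the CMV-miR-29b libraries. The libraries were made from poly(A) RNA, so these counts bear on the vector transcript and not on the mature miRNA. Of 10 fibroblast markers, Lum was at 0 in every library and Thy1 had at most 8 counts. Col1a1 ran from 752 to 2421 CPM, counts scaled to the library total, and Vim from 440.1 to 751. The summed level of the 6 neutrophil markers was at most 0.269 CPM, and that of the 7 macrophage markers ran from 21.7 to 27.9, most of it from Cd68, Cd14 and Lyz2, while Adgre1 had at most 4 counts in a library. The summed levels of the 5 endothelial and of the 6 epithelial markers were at most 3.07. Without and with TGF-β the endothelial sum was 1.09 to 1.52 and 2.26 to 2.88 CPM in empty vector cells, the epithelial sum 0.799 to 1.21 and 1.66 to 3.02, and the fibroblast sum 4077 to 4473 and 6593 to 7411. These 3 sums were higher with TGF-β, without overlap, in cells with the other vectors too, and their part in the TGF-β results was not tested. In bulk libraries, fewer cells with a transcript and less of it per cell cannot be told apart. Columns of 2 libraries, 1 in each Col1a1-miR-29b group, carry a letter that no sample label has. They were matched to the group alone and are called the unlettered libraries.

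The sequences that tie these genes to miR-29b are the seed of the microRNA and its matches in the 3′ UTRs of the members. The mature mouse sequence from RefSeq has its seed, bases 2 to 8, in capitals.
mmu-miR-29b-3p: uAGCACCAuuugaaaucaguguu
The DNA letters that pair with this seed are TGGTGCT. In the longest annotated 3′ UTR of each member (GENCODE, GRCm38), these letters occurred in 2 of the 10 genes, Mmp2 and Mmp13, once in each. The Mmp2 stretch lies at chr8:92852913-92852934 and covers the match at bases 258 to 264 of a 3′ UTR of 755 bases. The Mmp13 stretch lies at chr9:7283180-7283201, with the match at bases 1072 to 1078 of 1213. Both genes are on the + strand, and capitals mark the match.
Mmp2: tgggctgcccTGGTGCTccact
Mmp13: gagtaacactTGGTGCTtactg
Of the 21037 genes with an annotated 3′ UTR, 13.1% held these letters. Another match, GGTGCTA, leaves out the last base of the seed and adds an A opposite the first base of the microRNA. It was found once, in the 3′ UTR of Mmp9, and 6.59% of genes held it. Neither was found for Mmp3, Mmp10, Mmp14, Mmp19, Timp1, Timp2 or Timp3, although the 3′ UTRs of Timp3 and Timp2 had 3604 and 2630 bases. A match is a run of letters and not a measured site.

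The stretches before the start sites differ in the motifs they hold. RefSeq promoter windows of 300 bases (250 before and 50 after the start, GRCm38.p6) were at hand for 7 of the 10 members: Mmp3, Mmp10, Mmp13, Mmp14, Timp1, Timp2 and Timp3. Shown are 80 bases for 6 of them, all on the + strand, with 3 kinds of motif in capitals. For Timp3 the stretch ends before the start of the gene in the deposited table, which lies 40 bases ahead of the RefSeq start, and for the other 5 it ends just before the RefSeq start. These were the AP-1 motif TGANTCA, the Smad-binding letters CAGAC or GTCTG, and the GC box GGGCGG or CCGCCC.
Mmp13 (chr9:7272434-7272513): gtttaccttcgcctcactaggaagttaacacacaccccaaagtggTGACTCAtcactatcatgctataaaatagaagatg
Mmp3 (chr9:7445742-7445821): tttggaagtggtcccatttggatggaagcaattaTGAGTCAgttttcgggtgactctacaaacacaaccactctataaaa
Mmp10 (chr9:7502262-7502341): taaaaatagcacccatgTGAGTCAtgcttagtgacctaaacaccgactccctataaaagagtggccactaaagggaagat
Mmp14 (chr14:54431518-54431597): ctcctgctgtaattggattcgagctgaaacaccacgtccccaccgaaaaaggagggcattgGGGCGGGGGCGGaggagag
Timp1 (chrX:20870086-20870165): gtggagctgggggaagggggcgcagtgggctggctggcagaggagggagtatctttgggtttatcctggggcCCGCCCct
Timp3 (chr10:86300292-86300371): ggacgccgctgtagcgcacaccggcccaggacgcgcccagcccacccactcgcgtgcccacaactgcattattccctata
The AP-1 letters began 35 bases before the start of Mmp13, 46 before Mmp3 and 63 before Mmp10, and were in no window of the other 4. Of 32851 promoter windows, 7.81% held them anywhere and 2.11% within the last 80 bases before the start. GC box letters were found in the windows of Mmp14, Timp1, Timp2 and Timp3, as in 35.7% of all windows. For Timp2, a gene on the - strand, the window (chr11:118355362-118355661) lies wholly within the gene of the deposited table, which starts at 118355740. It therefore holds no bases before that start, and no stretch is shown for this gene. The Smad letters were found in the window of Mmp10 alone, while 49.6% of all windows held them. The 3 genes with AP-1 letters lie in 1 cluster of MMP genes on chromosome 9, between 7272514 and 7699585, and each had low counts here. In the same cluster, Mmp1a, Mmp1b, Mmp7, Mmp8 and Mmp27 had 0 counts in all 18 libraries. For each gene that allows up to 3 counts over the 18 libraries together. Mmp12 and Mmp20 reached 23 and 4 counts in a library.

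The 3 inhibitors, Mmp14 and Mmp19 had the highest levels among the 10 genes. Levels per length are given in the deposited FPKM, which is scaled for transcript length and library total, over 16 libraries, those whose columns match a sample label. Timp1 had a median of 73.2 FPKM (range 49.4 to 96.9) and Timp2 69.0 (57.8 to 85.9), and their ranges overlapped. Timp3 followed with a median of 12.7 FPKM (7.21 to 20.8), overlapping Mmp14 at 11.5 (8.15 to 16.5). Mmp19 had 6.2 FPKM (5.14 to 7.68) and stood apart from its neighbours in the order. The remaining 5 were Mmp2 at a median of 0.787 FPKM, Mmp9 at 0.482, Mmp13 at 0.369, Mmp3 at 0.116 and Mmp10 at 0.0245. Each of these overlapped the next in range. In Mmp3 and Mmp10, libraries without a count are listed at 0.0001 FPKM.

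**Figure D1:**
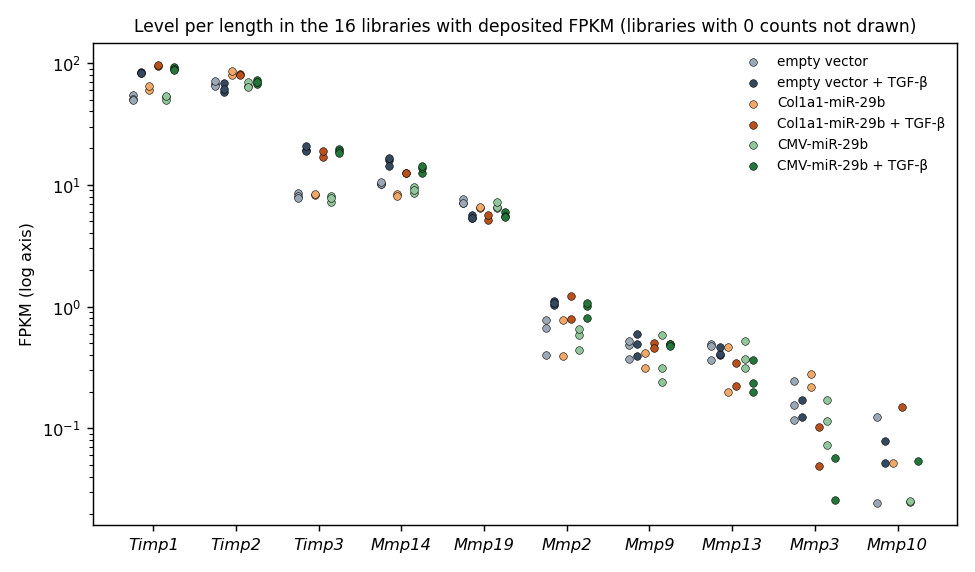
Deposited FPKM of the 10 genes (log axis) in each of the 16 libraries, ordered by median and coloured by group; libraries with 0 counts are not drawn. Timp1 and Timp2 lie near 70 FPKM, Timp3 and Mmp14 near 12, and 5 MMP genes stay below 1.3.

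Summed over the 7 MMP genes, the FPKM was 19.3 ± 0.249 (SD, n = 3) in empty vector cells without TGF-β and 23.2 ± 1.13 (n = 3) with it. The summed FPKM of the 3 TIMP genes was 127 ± 3.93 and 165 ± 3.76 in the same libraries. In each library the TIMP sum was therefore several times the MMP sum, with a ratio of 6.36 to 6.84 without TGF-β and 6.86 to 7.75 with it. With Col1a1-miR-29b (2 libraries per group) the ratio was 9.05 to 9.66 without TGF-β and 9.63 to 9.94 with it. In CMV-miR-29b cells it was 7.08 to 7.58 and 8.22 to 9.16. These are ratios of transcript levels and say nothing of protein.

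The share of each inhibitor within the TIMP sum was not the same with TGF-β as without it. In empty vector cells Timp2 made up 51.3% to 55.3% of the TIMP sum without TGF-β and 35.7% to 40.4% with it. Timp3 went from 6.12% to 6.60% without TGF-β to 11.2% to 12.6% with it, and Timp1 from 38.6% to 42.2% to 48.5% to 52.4%. Among the MMPs, the share of Mmp14 in the MMP sum was 52.1% to 53.9% without TGF-β and 65.6% to 68.5% with it. The ranges did not overlap for any of these 4 genes. Shares in 1 sum are not independent of each other, and each gene was tested on its counts.

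With TGF-β, 2 of the 3 inhibitors and the membrane-type protease Mmp14 rose, and Mmp19 fell with the empty and the Col1a1-miR-29b vectors and narrowly missed the threshold with CMV-miR-29b. In empty vector cells 4 of the 10 genes passed an adjusted p of 0.05 in edgeR's quasi-likelihood test, 3 higher (Timp3, Timp1 and Mmp14) and 1 lower (Mmp19). Of the 21161 genes tested, 5.88% passed in this comparison, 3.88% higher and 2.01% lower. In Col1a1-miR-29b cells the same 4 genes passed, against 4.32% of all genes (3.0% higher, 1.32% lower). In CMV-miR-29b cells 3 passed (Timp3, Timp1 and Mmp14), against 4.95% of all genes (3.08% higher, 1.87% lower). The treated and untreated libraries of 5, 6 and 6 of the 10 genes did not overlap in the 3 kinds of cells, and neither did those of 21%, 21.9% and 20.9% of all genes. The median log2 fold change of the 10 genes was 0.05, 0.59 and 0.23 in the 3 kinds of cells, and that of all genes tested lay between -0.01 and 0.00. Values below are counts normalized by TMM, a scaling for library composition, unless another scale is named.

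**Figure D2:**
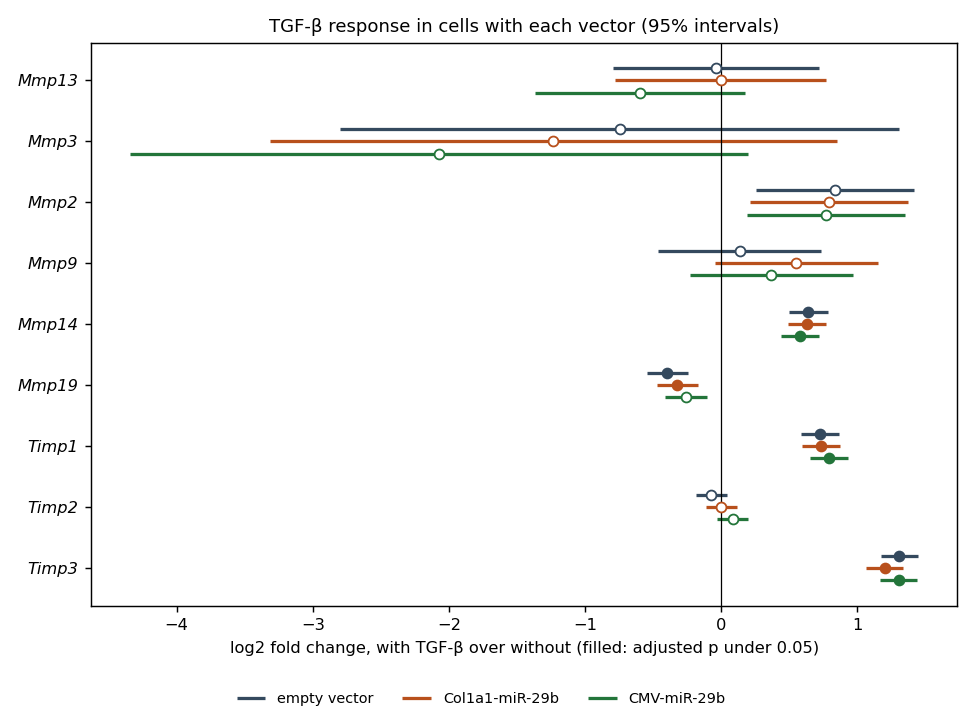
Log2 fold change with TGF-β over without it (x axis) for 9 of the genes in cells with each of the 3 vectors; points are estimates, lines are 95% intervals, and filled points passed an adjusted p of 0.05. Timp3, Timp1 and Mmp14 lie to the right of 0 in all 3 kinds of cells, and Mmp19 to the left. Mmp10, with at most 27 counts in a library, is left out.

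Timp3, whose product binds to the matrix and also inhibits ADAM proteases, had the largest called change among the members. In empty vector cells it had 5796, 5493 and 5285 normalized counts without TGF-β and 13590, 12951 and 14580 with it. The untreated Col1a1-miR-29b libraries had 5449, 5537 and 5048 and the treated ones 11439, 12982 and 12493. With the CMV-miR-29b vector the untreated libraries had 5536, 4859 and 5242 and the treated ones 13342, 12973 and 12341. Every treated library was above every untreated one, with whichever vector. The log2 fold change was 1.31 ± 0.06 (SE, adjusted p = 3.97e-09) in empty vector cells, which is 2.48-fold. It was 1.2 (adjusted p = 1.24e-08) in Col1a1-miR-29b cells and 1.31 (adjusted p = 3.76e-09) in CMV-miR-29b cells. Timp3 shares 1733 exon bases with Syn3 on the other strand, which had 6 to 44 counts per library and a log2 fold change of 0.22 (adjusted p = 0.927) in empty vector cells, and its part in the Timp3 result was not tested.

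Timp1, an inhibitor that cytokines are known to induce, rose as well. It had 4097, 3711 and 3632 normalized counts in empty vector cells without TGF-β and 6481, 6136 and 6294 with it. In Col1a1-miR-29b cells it had 4358, 4646 and 3800 without and 6920, 7211 and 7164 with TGF-β, and in CMV-miR-29b cells 3901, 3679 and 3935 without and 6845, 6683 and 6473 with it. Again no treated library overlapped an untreated one. The log2 fold changes were 0.73 ± 0.07 (SE, adjusted p = 2.93e-06), 0.73 (adjusted p = 3.24e-06) and 0.80 (adjusted p = 1.29e-06) in this order, or 1.65-, 1.66- and 1.74-fold.

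Timp2 was the inhibitor without a called response. In empty vector cells the untreated libraries had 21817, 20925 and 22863 normalized counts, and the treated ones, at 19357, 22416 and 20623, overlapped them. The log2 fold change was -0.07 (95% interval -0.19 to 0.04, adjusted p = 0.578) in empty vector cells. It was 0.00 (-0.11 to 0.12, adjusted p = 0.997) in Col1a1-miR-29b cells and 0.09 (-0.03 to 0.20, adjusted p = 0.499) in CMV-miR-29b cells. All 3 intervals lie below the estimates for Timp1 and Timp3 in the same cells.

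Mmp14 encodes a membrane-type MMP that cuts collagen at the cell surface and activates pro-MMP2. The untreated empty vector libraries had 5086, 4991 and 5197 normalized counts and the treated ones 8214, 7195 and 8434. In Col1a1-miR-29b cells it had 4089, 3964 and 4069 without and 6187, 6228 and 6384 with TGF-β. In CMV-miR-29b cells it had 4850, 4190 and 4457 without and 6176, 6906 and 7085 with it. Treated and untreated libraries did not overlap with any vector. The log2 fold changes were 0.64 ± 0.07 (SE, adjusted p = 1.11e-05), 0.63 (adjusted p = 1.74e-05) and 0.58 (adjusted p = 3.82e-05), or 1.56-, 1.55- and 1.49-fold.

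Mmp19, a secreted MMP that cuts basement membrane proteins, went the other way. In empty vector cells it had 2113, 2262 and 2082 normalized counts without TGF-β and 1621, 1670 and 1619 with it. In Col1a1-miR-29b cells it had 1878, 1896 and 1941 without and 1504, 1672 and 1399 with TGF-β, and in CMV-miR-29b cells 1903, 1918 and 2134 without and 1757, 1630 and 1593 with it. The treated libraries were lower in all 3 kinds of cells. The log2 fold change was -0.39 ± 0.07 (SE, adjusted p = 0.00246) in empty vector cells and -0.32 (adjusted p = 0.0148) in Col1a1-miR-29b cells. In CMV-miR-29b cells it was -0.26 with an adjusted p of 0.0502, which misses the threshold. It passed with DESeq2 (0.0105), total-count scaling (0.0498), counts divided by 4 (0.0329), limma on log2(FPKM + 1) (0.0463) or log2(FPKM + 0.1) (0.0432), and offsets for length and GC content (0.0341). The call in Col1a1-miR-29b cells was lost without either unlettered library (adjusted p = 0.0609 and 0.0908) or without replicate c of the treated group (0.0677), when both unlettered libraries were left out (0.206), and with limma on log2(FPKM + 1) (0.127) or with those groups fitted alone (0.0988). Mmp19 shares 789 exon bases with Tmem198b on the other strand, which had 1074 to 1531 counts. It shares 212 with Gm47093, also on the other strand, which had 26 to 184 counts. How strand was used in the counting is not given in the sources used here. Tmem198b had a log2 fold change of 0.25 (adjusted p = 0.176) in the empty vector comparison, opposite in sign to that of Mmp19. Gm47093 was at -0.26 (adjusted p = 0.812) in the same comparison. For Col1a1-miR-29b against the empty vector Gm47093 was at 1.55 (adjusted p = 0.00744) with TGF-β and 1.26 (adjusted p = 0.037) without it. The part of these genes in the Mmp19 results was not tested.

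**Figure D3:**
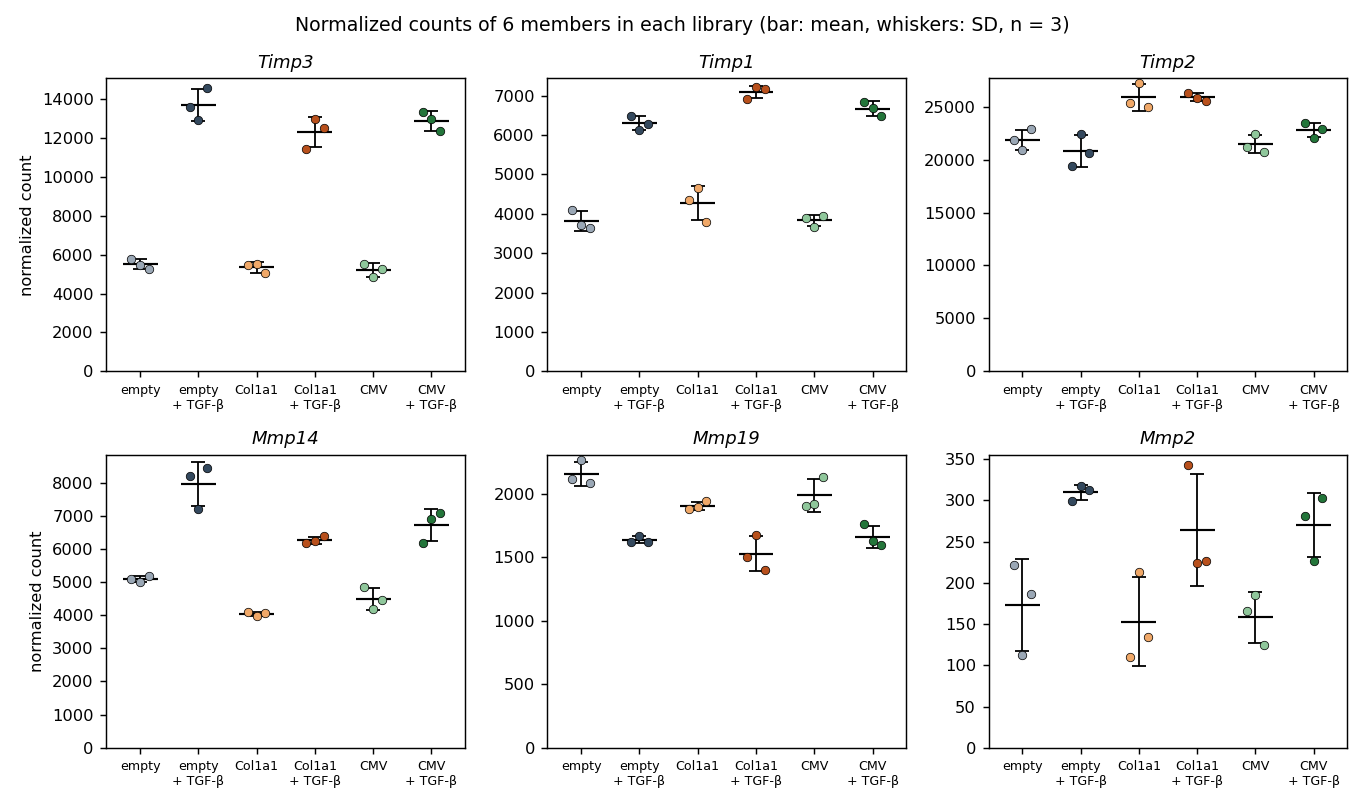
Normalized counts of 6 genes in each of the 18 libraries, by group (points: libraries; bars and whiskers: mean and SD, n = 3). Timp3, Timp1 and Mmp14 are higher in every TGF-β group than in the untreated group with the same vector, Mmp19 is lower, and Timp2 is highest in the Col1a1-miR-29b groups.

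The gelatinases were both expressed at low levels. Mmp2, which degrades denatured collagen and type IV collagen, had 222, 113 and 186 normalized counts in empty vector cells without TGF-β and 299, 318 and 312 with it. In Col1a1-miR-29b cells it had 110, 213 and 135 without and 343, 224 and 227 with TGF-β, and in CMV-miR-29b cells 165, 185 and 124 without and 282, 227 and 302 with it. The treated libraries were above the untreated ones with each vector, but the difference was not called. The log2 fold changes were 0.84 (95% interval 0.25 to 1.42, adjusted p = 0.0960), 0.79 (0.21 to 1.38, adjusted p = 0.148) and 0.77 (0.19 to 1.36, adjusted p = 0.146). DESeq2 called it in empty vector cells (adjusted p = 0.0402), and edgeR called it in Col1a1-miR-29b cells when replicate d of the untreated group was left out (log2 fold change 1.12, adjusted p = 0.0453).

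Mmp9, the other gelatinase, ran from 71.0 to 212 normalized counts over the 18 libraries. In Col1a1-miR-29b cells the untreated libraries, at 92.3, 122 and 122, lay below the treated ones, at 148, 135 and 212, while the groups overlapped with the other vectors. Its log2 fold change with TGF-β was 0.14, 0.55 and 0.37 in empty vector, Col1a1-miR-29b and CMV-miR-29b cells (adjusted p = 0.894, 0.408 and 0.632). The 95% interval in Col1a1-miR-29b cells, -0.05 to 1.16, leaves room for a change of up to that size.

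The collagenase and the stromelysins of the chromosome 9 cluster showed no called change either. Mmp13, which cleaves fibrillar collagen, had 82.0, 111 and 105 normalized counts in empty vector cells without TGF-β and 93.2, 91.1 and 106 with it. Its log2 fold changes were -0.03, -0.00 and -0.59 in the 3 kinds of cells (adjusted p = 0.986, 1.0 and 0.499). Leaving out replicate c of the untreated Col1a1-miR-29b group, at 103 normalized counts against 44.0 and 33.1 in the other libraries of that group, moved the estimate in those cells from -0.00 to 0.62.

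Mmp3, a stromelysin with many matrix substrates, had 40, 26 and 19 raw counts in empty vector cells without TGF-β and 19, 0 and 27 with it. In CMV-miR-29b cells the untreated libraries had 19, 12 and 27, and the treated ones, at 0, 8 and 4, were all lower. The log2 fold changes were -0.74, -1.23 and -2.07 (adjusted p = 0.806, 0.679 and 0.381), each with a 95% interval that spans 0. Mmp10, the other stromelysin, had 0 to 27 raw counts per library and at least 1 library at 0 in each of the 6 groups. Its lowest adjusted p among the 3 TGF-β comparisons was 0.844, and a moderate change was not detectable at this depth.

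**Figure D4:**
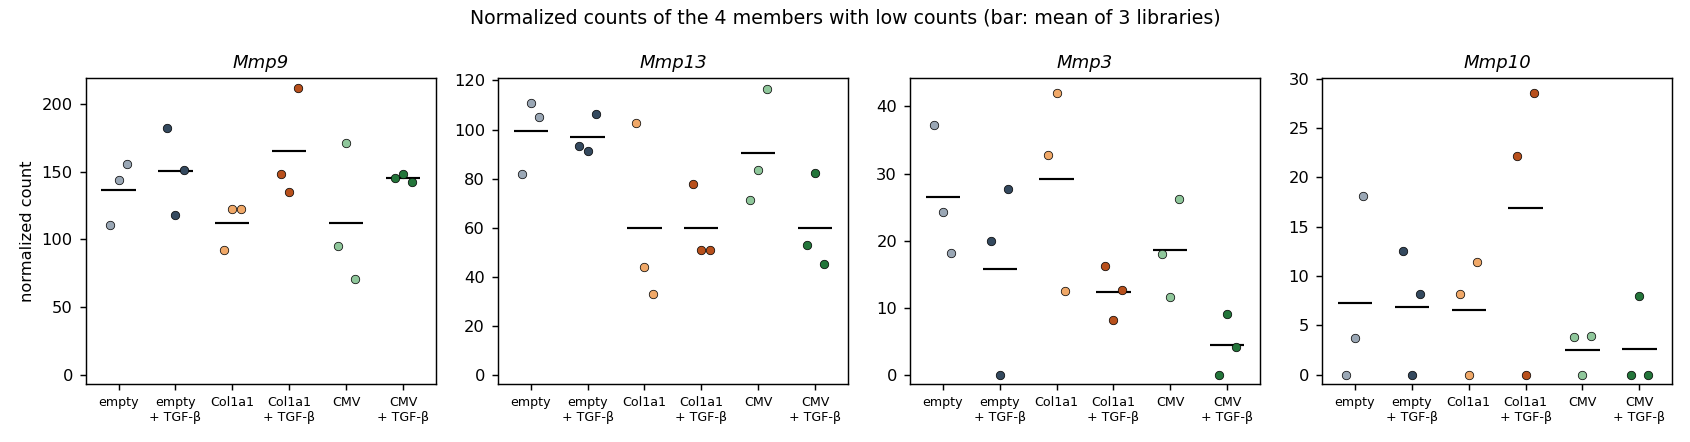
Normalized counts of Mmp9, Mmp13, Mmp3 and Mmp10 in each of the 18 libraries, by group (points: libraries; bars: mean of 3). The groups overlap for Mmp10, the treated Col1a1-miR-29b libraries lie above the untreated ones for Mmp9, and Mmp3 has its lowest mean in CMV-miR-29b cells with TGF-β.

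Against the empty vector, Timp2 was called higher and Mmp14 lower in Col1a1-miR-29b cells with and without TGF-β. Without TGF-β both calls were lost in some of the refits given below. Mmp14 was also lower, without overlap and without a call, in CMV-miR-29b cells (log2 fold change -0.24 with TGF-β and -0.18 without it). The number of calls among the 10 genes was not tested against the shares of all genes that follow. With TGF-β, 2 of the 10 genes passed against the empty vector (1 higher, 1 lower), while 12.9% of all genes tested passed (5.31% higher, 7.63% lower). Without TGF-β the same 2 passed, and 6.27% of all genes did (2.57% higher, 3.7% lower). These comparisons share their control libraries with the TGF-β comparison in empty vector cells. For the CMV-miR-29b vector 0 of 10 passed with TGF-β, where 0.00945% of all genes passed, and 0 of 10 without it, where 0.00473% passed. At an unadjusted p under 0.05 there were 2 and 1 of the 10 for this vector, against 12.0% and 5.46% of all genes. DESeq2 called 1 and 0 of the 10, where it called 294 and 37 genes in all. The libraries of the 2 vectors compared did not overlap in 4 of 10 cases for Col1a1-miR-29b with TGF-β, in 3 for Col1a1-miR-29b without it, and in 2 and 1 for CMV-miR-29b. The shares of all genes without overlap were 30%, 29%, 15.9% and 10.6% in this order.

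Timp2 had 26300, 25862 and 25557 normalized counts in Col1a1-miR-29b cells with TGF-β, all above the 22416 of the highest empty vector library with TGF-β. Without TGF-β it had 25367, 27265 and 24962, above the 22863 of the highest empty vector library. The log2 fold change was 0.32 ± 0.05 (SE, adjusted p = 0.00176) with TGF-β and 0.24 ± 0.05 (adjusted p = 0.0164) without it, or 1.25- and 1.18-fold. Without TGF-β the call was lost when replicate c or d of the empty vector group or replicate d of the Col1a1-miR-29b group was left out (adjusted p = 0.0683, 0.0881 and 0.112), without the unlettered libraries (0.0501), with those groups fitted alone (0.0519) and with limma on log2(FPKM + 0.1) (0.0518). For the CMV-miR-29b vector the change was 0.13 (95% interval 0.02 to 0.25, adjusted p = 0.346) with TGF-β and -0.03 (-0.14 to 0.09, adjusted p = 1.0) without it. Cep295nl, which lies within Timp2 on the same strand with 0 shared exon bases, had 165 to 653 counts per library and log2 fold changes of 1.23 (adjusted p = 0.00199) and 0.83 (adjusted p = 0.0289) in the same Col1a1-miR-29b comparisons. Its part in the Timp2 result was not tested.

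Mmp14 had 6187, 6228 and 6384 normalized counts in Col1a1-miR-29b cells with TGF-β and 8214, 7195 and 8434 in empty vector cells with TGF-β, with no overlap. The log2 fold change was -0.34 ± 0.07 (SE, adjusted p = 0.00376). Without TGF-β it was -0.33 ± 0.07 (adjusted p = 0.0103), and the 3 libraries, at 3964 to 4089, were again below the empty vector libraries, at 4991 to 5197. That call was lost in 4 of 12 alternatives, with an adjusted p of up to 0.0925. Limma on log2(FPKM + 1) was among them (adjusted p = 0.0508). In CMV-miR-29b cells the estimates were -0.24 (95% interval -0.38 to -0.10, adjusted p = 0.188) with TGF-β and -0.18 (-0.32 to -0.04, adjusted p = 0.819) without it. The first of these was called by DESeq2 (adjusted p = 0.0480), and by edgeR when replicate d of the empty vector group with TGF-β was left out (adjusted p = 0.0432). Whether the vectors differ from each other was not tested. No seed match was found in the 3′ UTR of Mmp14.

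**Figure D5:**
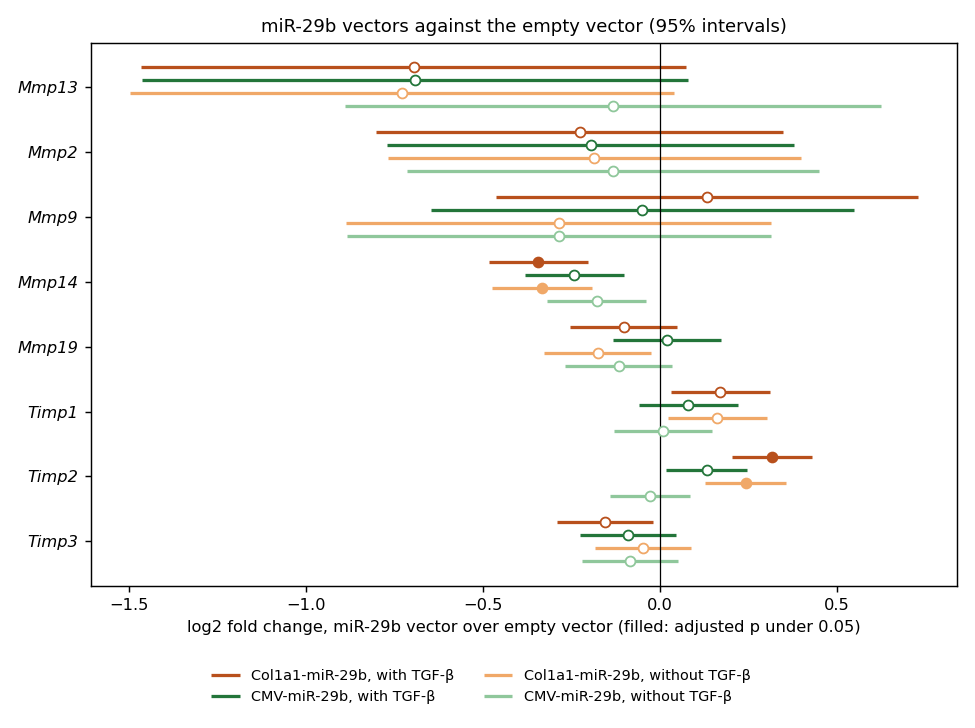
Log2 fold change of each miR-29b vector over the empty vector (x axis), with and without TGF-β, for 8 of the genes; points are estimates, lines are 95% intervals, and filled points passed an adjusted p of 0.05. Only Mmp14 and Timp2 have filled points, both for the Col1a1-miR-29b vector. Mmp3 and Mmp10 are left out because of their wide intervals.

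The 2 genes whose 3′ UTRs hold the seed match printed above, Mmp2 and Mmp13, were not called in any vector comparison. With TGF-β, Mmp13 had 77.7, 50.7 and 50.9 normalized counts in Col1a1-miR-29b cells and 52.8, 82.1 and 45.1 in CMV-miR-29b cells. The empty vector libraries, at 91.1 to 106, were above all of these. The log2 fold change was -0.70 (95% interval -1.47 to 0.07, adjusted p = 0.244) for Col1a1-miR-29b and -0.69 (-1.46 to 0.08, adjusted p = 0.467) for CMV-miR-29b. Without TGF-β it was -0.73 (-1.50 to 0.04, adjusted p = 0.264) and -0.13 (-0.89 to 0.62, adjusted p = 1.0), and the groups overlapped. Leaving out replicate c of the untreated Col1a1-miR-29b group moved the first of these to -1.36 (adjusted p = 0.0331). For Mmp2 the log2 fold changes with TGF-β were -0.23 (-0.80 to 0.35) and -0.20 (-0.77 to 0.38), and without TGF-β -0.18 (-0.77 to 0.40) and -0.13 (-0.72 to 0.45), in the same order. The lowest adjusted p of Mmp2 among these 4 was 0.674.

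The other 6 genes were not called for either vector. Timp1 had log2 fold changes of 0.17 (adjusted p = 0.102) with TGF-β and 0.16 (adjusted p = 0.157) without it for the Col1a1-miR-29b vector. The first was called by limma on log2(FPKM + 1) at an adjusted p of 0.0347 and with total-count scaling at 0.0432, the second by limma at 0.0264 and, in edgeR without the unlettered untreated library, at 0.0449. Timp3 was at -0.16 (adjusted p = 0.128) with TGF-β, and Mmp19 at -0.18 (adjusted p = 0.160) without it.

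The response to TGF-β of the 10 genes was not shown to differ between vectors. In the tests of the difference in response, 0 of 10 passed for either miR-29b vector, as did 0.0% of all genes. At an unadjusted p under 0.05 there were 0 of the 10 in both, against 4.54% and 5.34% of all genes. DESeq2 called none of the 10, where it called 21 and 19 genes in all. For Timp3, Timp1, Mmp14, Mmp19 and Timp2 the 95% intervals of the difference from the empty vector response all lay between -0.30 and 0.35 on the log2 scale. The estimate furthest below 0 among these 5 was that of Timp3 for Col1a1-miR-29b, at -0.11 (interval -0.30 to 0.08). For CMV-miR-29b, Mmp19 was at 0.14 (-0.08 to 0.35), and Timp2 at 0.16 (-0.00 to 0.32) with an unadjusted p of 0.0507 and an adjusted p of 0.922. For Col1a1-miR-29b Timp2 was at 0.07 (-0.09 to 0.23).

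Of 17 other MMP and TIMP genes, 9 passed the filter on low counts. Mmp11 had 1856 to 2931 raw counts per library, Mmp16 748 to 1150, Mmp28 498 to 939 and Mmp23 205 to 340, and each of the other 13 had at most 57. With TGF-β edgeR called 1 of the 9 with each vector, where 5.88%, 4.32% and 4.95% of all genes were called. In the vector comparisons edgeR called 0 of the 9. Of all genes it called 12.9% and 6.27% for Col1a1-miR-29b with and without TGF-β, and 0.00945% and 0.00473% for CMV-miR-29b. DESeq2 called 0 of the 9, where it called 3491, 2336, 294 and 37 genes in all. In this order 1, 1, 0 and 1 of the 9 had an unadjusted p under 0.05, as did 26.1%, 21.5%, 12.0% and 5.46% of all genes. Mmp11, a stromelysin of stromal cells, had a mean of 2209 ± 102 normalized counts (SD, n = 3) without TGF-β and 2683 ± 115 with it in empty vector cells (log2 fold change 0.28, adjusted p = 0.0471). In Col1a1-miR-29b cells it had 2161 ± 219 and 2747 ± 76.2 (log2 fold change 0.35, adjusted p = 0.0169). In CMV-miR-29b cells Mmp11 had 2345 ± 190 and 2821 ± 159, with a log2 fold change of 0.27 that missed the threshold (adjusted p = 0.0677). There the gene called by edgeR was Mmp21, and DESeq2 called 2 of the 9 genes, where it called 1514 genes in all. Mmp21 was found with 0 counts in the 3 untreated libraries and 15, 15 and 6 counts with TGF-β (adjusted p = 0.0298). Against a floor of 3 counts over the untreated group the ratio is 13.2, which does not allow for the spread between libraries. That spread was wide, since in empty vector cells Mmp21 had 0, 29 and 8 counts without TGF-β and 12, 5 and 4 with it.

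Several genes that act on MMPs rose with TGF-β alongside Timp3, Timp1 and Mmp14. Of 24 regulators, covering proprotein convertases, the plasminogen system, endocytic receptors and other binding partners, 18 passed the filter. With TGF-β 7 rose and 0 fell in empty vector cells, 8 and 0 in Col1a1-miR-29b cells and 8 and 0 in CMV-miR-29b cells, beside the 3.88%, 3.0% and 3.08% of all genes that were called higher. Among those with the lowest adjusted p in any comparison were Thbs1, Plaur, Lrp1, Furin and Cd44. Thbs1, a matrix glycoprotein that activates latent TGF-β, rose from 8201 ± 567 to 20414 ± 2054 normalized counts in empty vector cells (SD, n = 3, log2 fold change 1.32, adjusted p = 2.98e-08). Plaur, the receptor of urokinase, had a log2 fold change of 0.82 (adjusted p = 1.33e-05) in the same cells.

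Furin, a convertase that cleaves the propeptide of the Mmp14 product, had a log2 fold change of 0.63 (adjusted p = 9.75e-05) in empty vector cells. Lrp1, an endocytic receptor that clears MMPs and their complexes with TIMPs, was at 0.79 (adjusted p = 2.96e-05), and Cd44, which can hold MMPs at the cell surface, at 0.70 (adjusted p = 0.000172). For the Col1a1-miR-29b vector with TGF-β, 2 regulators were called higher and 1 lower, against the 5.31% and 7.63% above. The lower one was Lrp1, with a log2 fold change of -0.34 (adjusted p = 0.0196). For the CMV-miR-29b vector edgeR called 0 regulators with TGF-β and 0 without it, against 0.00945% and 0.00473% of all genes. At an unadjusted p under 0.05 there were 2 and 0 regulators, against 12.0% and 5.46% of all genes. DESeq2 called 0 regulators in both, where it called 294 and 37 genes in all. For the Col1a1-miR-29b vector without TGF-β 1 was called higher and 0 lower, against 2.57% and 3.7% of all genes.

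For each of the 10 genes, the gene with the most similar pattern over the 18 libraries was sought among 13902 others with a mean CPM of at least 1. The measure was Pearson's r of log2(CPM + 1), given as a description only, since the libraries share groups, and the best of many is high by selection. Timp3 was nearest to Ccn4 (r = 0.997), Timp1 to Fstl3 (r = 0.986), Mmp14 to Adamtsl3 (r = 0.983), Timp2 to Pbxip1 (r = 0.959) and Mmp19 to Me2 (r = 0.949). The genes with low counts had lower values, from 0.892 between Mmp2 and Vps37c to 0.724 between Mmp10 and 2310030G06Rik. The others were Hps3 for Mmp13, Slc45a3 for Mmp9 and Vegfd for Mmp3.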

How the data were processed

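Poly(A) RNA libraries of 18 MEF samples in 6 groups were sequenced as paired ends. According to the study's methods and the submitters' processing notes, reads were trimmed with cutadapt, checked with FastQC, mapped with HISAT2 to the Ensembl mouse genome and assembled with StringTie. The method of counting is not given in the sources used here. The authors deposited whole-number counts per gene and FPKM values, with 0.0001 in place of 0 in the FPKM. The study's methods call the counts given to DESeq2 normalized. The deposited counts were taken here as not normalized, which could not be checked. The gene coordinates are those of GRCm38, although the processing notes name mm9. Coordinates of 52506 of 55450 genes were identical to GENCODE, those of Mmp14 not. Among counts from 1 to 40, multiples of 4 made up 33.8% to 36.7% per library, where chance gives 25%. The 2 FPKM columns of the unlettered libraries were not used.

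Counts were tested with edgeR 4.0.16 in R 4.3.3 (filterByExpr, TMM, 1 mean per group, quasi-likelihood F tests, Benjamini-Hochberg adjustment over 21161 genes, threshold 0.05). All 10 members passed the filter. Standard errors come from the F statistic. The tests were checked on simulated counts. Alternatives were DESeq2 1.42.0, its size factors, total-count scaling, no filter, groups alone, a replicate block, each library left out, limma 3.58.1 on FPKM in log2 with a pseudocount of 1 or 0.1, and counts divided by 4. Offsets for length and GC content, the block with these offsets, and fits without the unlettered libraries were added after seeing the data.

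The replicate letters (c, d, e) were not shown to pair the libraries. Deviations from group means correlated at 0.0128 on average over 36 pairs of the same letter and at -0.00657 over 70 pairs of different letters. Between replicates the counts differed by more than sampling noise. Named are the 10 members, called genes of the other-family list, up to 6 regulators with the lowest adjusted p (1 of them is not reported here), for each member the most similar gene, and Mir29b-1. Overlapping genes, markers and silent cluster genes were named beside the results they touch, after their values were seen. The members and lists were chosen with earlier results of these data known.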

Additional observations from a re-analysis of the deposited data

How the results depend on the processing

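The 15 calls among the 90 tests of the 10 genes kept their direction under every alternative and without each library. Of their 180 refits under the alternatives, 15 lost the threshold, and of 90 refits without 1 library, 6 did. The calls of Timp3, Timp1 and Mmp14 with TGF-β, of Mmp19 in empty vector cells, and of Timp2 and Mmp14 for Col1a1-miR-29b with TGF-β were kept throughout. Mmp19 in Col1a1-miR-29b cells was lost under the replicate block, which leaves out the unlettered libraries (adjusted p = 0.29), and so were Timp2 (0.0862) and Mmp14 (0.0835) for Col1a1-miR-29b without TGF-β. The letters were not shown to pair libraries, and the fit with the block has 16 libraries.

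For Col1a1-miR-29b without TGF-β, 2 genes were called. The count was 0 with the replicate block, with or without the length and GC offsets, 1 with the groups compared alone, with limma on log2(FPKM + 0.1) and without the unlettered libraries, and 1 to 3 without 1 library. For CMV-miR-29b with TGF-β it was 0, 1 with DESeq2, and 0 to 1 without 1 library.

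Changes of sign were among values that were not called, those of Mmp3 and Mmp10 included, and those of the values given above follow. For Timp2 in Col1a1-miR-29b cells the log2 fold change with TGF-β, 0.00, became -0.025 with total-count scaling, -0.0055 without the filter, -0.0077 with counts divided by 4, -0.018 with the replicate block, -0.040 with limma on either FPKM scale, -0.028 with the length and GC offsets, -0.041 with these and the block, -0.019 without the unlettered libraries, and -0.031 to 0.046 without 1 library. Mmp13 in these cells was at 0.035 with the offsets. Without 1 library it ran from -0.30 to 0.62 there and from -0.16 to 0.043 in empty vector cells, and Mmp9 from -0.029 to 0.27 in empty vector cells. Without TGF-β and without 1 library, Mmp2 ran from -0.52 to 0.022 for Col1a1-miR-29b and from -0.37 to 0.079 for CMV-miR-29b, and Timp2 for CMV-miR-29b from -0.065 to 0.00028.

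Over the alternatives, the genes called among all tested ran from 618 to 1753 (1245 in the reported fit), 394 to 1317 (914) and 527 to 1514 (1047) for TGF-β with the 3 vectors. For Col1a1-miR-29b they ran from 895 to 3491 (2738) with and 161 to 2336 (1327) without TGF-β, and for CMV-miR-29b from 1 to 294 (2) and 0 to 37 (1). For the differences in response they ran from 0 to 21 and 0 to 19 (0 in both). The highest count was that of DESeq2 in each. Mmp3 and Mmp10, with at most 43 and 27 counts in a library, cannot show moderate changes.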
